A study of Mus musculus with 6 samples.

Results

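The canonical pericytes of the Tbx18 line were the 745 cells that the authors' clustering of this line placed in cluster 2, out of 6578 *Tbx18-tdT+* cells and 17033 cells in all 6 libraries of the study. The line carried Tbx18-CreERT2 and the Ai14-flx reporter in all 3 of its groups, so tamoxifen switched on tdTomato in cells whose Tbx18 promoter was active, and cortical tdT+/DAPI- live cells were sorted. The NG2 line, used below for comparison, carried NG2-CreERT2 and the Ai14-flx reporter and had the same groups and schedule. Mice were 3 to 4 months old and all received tamoxifen. The groups were naïve (no injury), physical injury (saline injected into the brain 7 days after tamoxifen) and ischemic injury (endothelin-1 with L-NAME, a vasoconstrictor and an inhibitor of nitric oxide synthesis, injected on the same schedule), and the injured cortices were taken 3 days after injection. Cortices of several animals of both sexes were pooled into 1 droplet library per group. No value below therefore has a replicate, no test between groups was possible, and every interval covers counting error only. The Tbx18 promoter is active in pericytes and in vascular smooth muscle, so the sort does not separate these cell types.

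Pericytes sit within the basement membrane of capillaries and small venules and share a lineage with the smooth muscle cells of larger vessels. In the brain they help to keep the blood-brain barrier closed, receive platelet-derived growth factor B from endothelial cells through Pdgfrb, and regulate capillary tone. The markers used here cover several of these roles. Vtn encodes the adhesion protein vitronectin, Abcc9 and Kcnj8 encode the regulatory and pore subunits of a vascular ATP-sensitive potassium channel, Atp13a5 encodes a P-type ATPase that is highly selective for brain pericytes, Higd1b is a mitochondrial membrane gene and Rgs5 encodes a regulator of G protein signalling.

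Cluster 2 held 226 of 686 naïve cells, 433 of 3845 physical injury cells and 86 of 2047 ischemic injury cells. These are 32.9% (exact Clopper-Pearson 95% interval 29.4% to 36.6%), 11.3% (10.3% to 12.3%) and 4.20% (3.37% to 5.16%) of the sorted cells. The shares cannot be read as numbers of pericytes, because the cluster was formed on genes that themselves differed between the libraries and naïve cells rich in the markers lay in other clusters too. In the naïve library, 76 of 159 cells of the endothelial cluster 0, 76 of 76 cells of cluster 3 and 155 of 157 cells of cluster 4 had at least 0.5% of their UMIs (unique transcript molecules) from the 6 markers, against 38 of 1788, 1 of 318 and 4 of 349 cells in physical injury and 3 of 1488, 0 of 265 and 0 of 143 cells in ischemic injury. The authors named cluster 3 microglia and cluster 4 vascular-genic pericytes. A list of 12 microglia and macrophage genes summed to only 26.6 CPM (UMIs of a gene per 1000000 UMIs of all genes) in the naïve cells of cluster 3, against 32320 CPM in physical injury and 28143 CPM in ischemic injury, whereas Vtn was at 8421 CPM in those naïve cells. With the marker-rich cells of clusters 3 and 4 counted in, a choice made after seeing the data, the naïve share was 66.6% and the shares after injury were 11.4% and 4.20%. The 76, 37 and 4 marker-rich naïve cells of clusters 0, 1 and 5 were not counted in.

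Depth also differed. The pericytes had a median of 6548 UMIs and 2714 genes per cell in the naïve library, 2540 UMIs and 1371 genes in physical injury, and 3792 UMIs and 1858 genes in ischemic injury. The summed counts were 1487085, 1484526 and 352373 UMIs, so the ischemic injury values rest on far fewer counts than the others, and 3 counts there equal 8.51 CPM. Mitochondrial transcripts made up a median of 2.35%, 3.37% and 2.54% of a cell's UMIs. No cell barcode in cluster 2 was shared between libraries, and 3 barcodes were shared between the whole physical and ischemic injury libraries.

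All 6 markers were present in the pericytes of every library, and all 6 were lower after injury than in naïve cells. Vtn was at 12420 CPM (12242 to 12601) in naïve, 7714 CPM (7574 to 7857) in physical injury and 8131 CPM (7836 to 8434) in ischemic injury cells. Rgs5 was at 8611 CPM (8462 to 8761) in naïve, 6613 CPM (6483 to 6745) in physical injury and 5364 CPM (5125 to 5611) in ischemic injury cells. The potassium channel pair was also highest in naïve cells, with Abcc9 at 1724, 664 and 780.4 CPM and Kcnj8 at 1075, 577 and 582 CPM in naïve, physical injury and ischemic injury cells. Atp13a5 was at 3015, 1588 and 1476 CPM, and Higd1b at 1421, 891 and 968 CPM. The naïve level was the highest of the 3 for each of the 6 markers, and the injured libraries had no common order. The log2 ratio of physical injury over naïve was taken with a pseudocount of 1 CPM. It was lowest for Abcc9 at -1.37 (-1.48 to -1.27) and nearest to 0 for Rgs5 at -0.38 (-0.42 to -0.34). The physical injury levels include 73 cells with few UMIs of these markers, described below. Without those cells the median log2 ratio of the 6 markers was -0.61 in place of -0.79, and Rgs5 was at 7444 CPM. The 73 cells were set apart by these same markers, so leaving them out raises the summed level by definition.

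The cells of cluster 0, which is led by endothelial genes, give a background for the injured libraries but not for the naïve library, where 76 of its 159 cells were rich in the markers. The 6 markers summed to 3621, 341.5 and 100.7 CPM there, against 28265, 18048 and 17300 CPM in the pericytes. Vtn in cluster 0 was at 1192, 38.8 and 5.46 CPM. The part of free RNA in the naïve levels was not tested. Among the 10 genes most above the other cells of the same library, cluster 2 had Abcc9 only among the markers in the naïve library, Abcc9, Kcnj8 and Atp13a5 in physical injury and those 3 with Vtn in ischemic injury. No gene of another cell type's list was there except Meg3, a noncoding RNA from the neuron list, in ischemic injury, at 355 CPM in naïve, 438 CPM in physical injury and 602 CPM in ischemic injury cells.

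**Figure D1:**
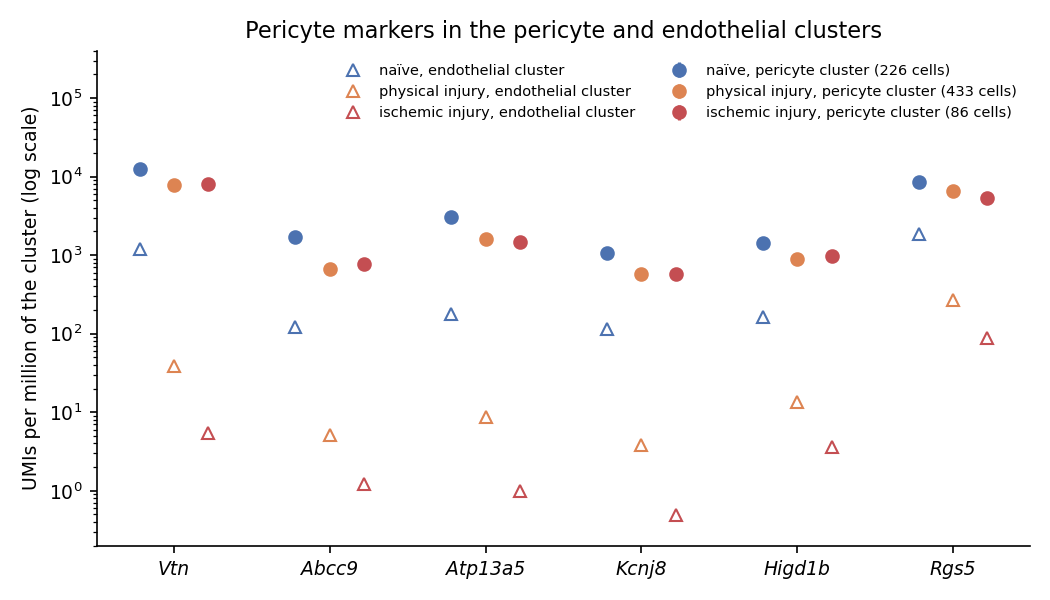
Levels of the 6 markers in CPM on a log scale. Filled circles show pericytes of cluster 2 with exact Poisson 95% intervals, which are mostly smaller than the symbols, and open triangles show cells of the endothelial cluster 0, of which 76 of 159 in the naïve library were rich in the markers. Every circle of the naïve library lies above both circles of the injured libraries, and the naïve triangles lie above the injured ones.

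The markers were not present at this level in every cell of the cluster. In 73 of the 433 cells (16.9%) the 6 markers gave under 0.25% of the UMIs, against 0 of 226 naïve cells, which allows a share of up to 1.33% (3 cells of 226), and 3 of 86 ischemic injury cells. The limit was set after seeing the data. Of the 73 cells, 55 were below 0.1%, 18 lay between 0.1% and 0.25%, and 14 cells just above it lay between 0.25% and 0.5%. In the 73 cells Vtn was at 45.6 CPM and Rgs5 at 405 CPM, against 8741 and 7444 CPM in the other cells of that library. Some smooth muscle genes were higher in them and others lower. Myocd, the transcriptional coactivator of smooth muscle genes, was at 747 against 16.0 CPM, and Myh11, smooth muscle myosin heavy chain, at 2721 against 324 CPM. Kcnab1, a potassium channel subunit, was at 3372 against 70.3 CPM, above the 1108 CPM of the smooth muscle cells of cluster 1 in that library. Acta2, smooth muscle actin, differed less, at 2687 against 1471 CPM, and was at 13573 CPM in cluster 1. Myl9, a myosin light chain, was at 1466 against 2080 CPM and Cald1, caldesmon, at 2100 against 3173 CPM. Some endothelial genes were also higher in the 73 cells, with Cldn5, an endothelial claudin, at 553 against 133 CPM in 6 cells and Flt1, a receptor for vascular endothelial growth factor, at 884 against 332 CPM in 11 cells, whereas Esam, an adhesion molecule, was at 268 against 322 CPM and Itm2a at 171 against 157 CPM. The 73 cells had a median of 1343 UMIs and the others a median of 2844. They are called cells low in the markers below, and values without them are given beside several results.

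**Figure D2:**
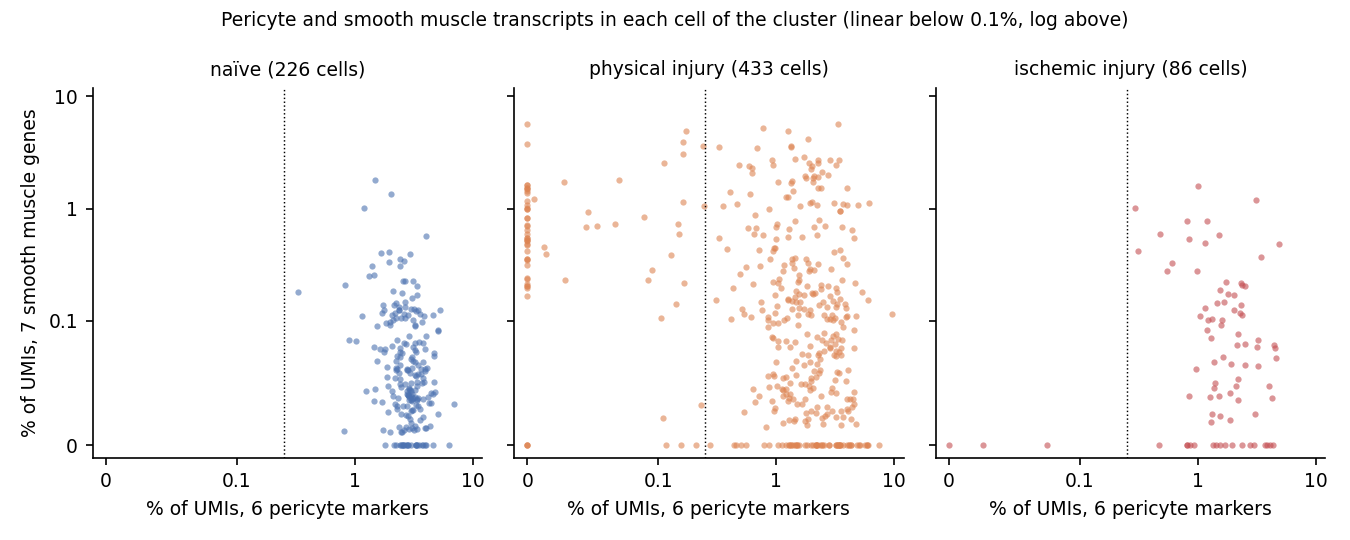
Each point is a cell of cluster 2, with the percent of its UMIs from the 6 pericyte markers on the horizontal axis and from 7 smooth muscle genes on the vertical axis, both linear below 0.1% and logarithmic above. The dotted line marks 0.25%, and 73 cells of the physical injury library, but no naïve cell and 3 ischemic injury cells, lie to its left.

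The naïve pericytes were themselves uneven. In the authors' separate clustering of both naïve libraries, 205 of the 226 cells fell in 6 clusters that held 25 or more of them each. Immediate early genes, the first transcripts induced by stimulation or by tissue digestion, differed widely between these 6 groups. Jun was at 703 CPM in the 28 cells of naïve cluster 1, 2961 CPM in the 41 cells of cluster 2 and 14004 CPM in the 25 cells of cluster 3. Fos had the same order, at 548, 1929 and 12402 CPM. Hspa1a, an inducible heat shock protein, was at 503 CPM in cluster 1 and 9405 CPM in cluster 3. Vtn ran from 8458 CPM in the 30 cells of cluster 5 to 18063 CPM in cluster 1. The cells of cluster 5 also had the highest Acta2 of these 6 groups, at 489 CPM, and the lowest Kcnj8, at 345 CPM. The clusters were formed on expression, so these values describe them and test nothing.

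The number of genes past 2-fold was counted in each of the 3 comparisons. Of 4422 genes with at least 50 CPM in the higher of the 2 libraries, 285 (6.45%) were at least 2-fold higher and 162 (3.66%) at least 2-fold lower in physical injury than in naïve cells. For ischemic injury over naïve the counts were 321 (7.07%) and 235 (5.17%) of 4543 genes. For ischemic injury over physical injury they were 86 (1.91%) and 114 (2.53%) of 4507 genes. The order of these counts depends on the setting. After thinning each cell to 1000 UMIs they were 427 and 313 for physical injury over naïve but 601 and 495 for ischemic over physical injury. The latter were also more numerous without cells holding 2 or more endothelial or microglial list UMIs. With no minimum level only the lower genes were more numerous in the latter comparison. The first 2 comparisons share the naïve cells. The minimum of 50 CPM applies to the higher library of each pair. The members counted of a list can therefore differ between comparisons, and some pass only through the library where they are high. The median log2 ratio of all these genes was -0.02, 0.02 and 0.02. The shares of all these genes past 2-fold are the reference for the list counts below. A gene is called pericyte-led below where its CPM in cluster 2 of the higher library was at least that of every other cluster there with 20 or more cells. Of the genes past 2-fold, 36 and 86 were pericyte-led in the first comparison, 123 and 115 in the second, and 57 and 12 in the third.

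The 10 pericyte-led genes with the largest ratios of physical injury over naïve were, in this order, Lmcd1, Clstn2, Kirrel3, Cxcl1, Myc, Serpine2, Rgs16, Ccl19, Angpt2 and Ntrk2. Cxcl1, a chemokine that attracts neutrophils, was at 39.7 CPM (30.2 to 51.2) in naïve, 383 CPM (352 to 415) in physical injury and 1090 CPM (984 to 1204) in ischemic injury cells, a log2 ratio of 3.24 (2.88 to 3.68) for physical injury over naïve. Ccl19, a chemokine for T cells and dendritic cells, was at 30.3 CPM in naïve, 224 CPM in physical injury and 247 CPM in ischemic injury cells. Both chemokines were highest in ischemic injury and lowest in naïve cells. Rgs16, another regulator of G protein signalling, was at 73.3 CPM in naïve, 542 CPM in physical injury and 669.7 CPM in ischemic injury cells. Serpine2, a secreted protease inhibitor, was at 30.3 CPM in naïve, 246 CPM in physical injury and 213 CPM in ischemic injury cells. Angpt2, which opposes the vessel-stabilising ligand of the Tie2 receptor, was at 14.1 CPM in naïve, 106 CPM in physical injury and 207 CPM in ischemic injury cells, and that ligand, Angpt1, at 37.7 CPM in naïve, 197 CPM in physical injury and 326 CPM in ischemic injury cells. Both angiopoietins were thus higher in both injured libraries than in naïve cells. Myc, a growth regulator, was at 4.71, 50.5 and 90.8 CPM, and Ntrk2, a neurotrophin receptor, at 9.41, 69.4 and 56.8 CPM. Lmcd1, a LIM-domain cofactor, was at 2.02 CPM in naïve, 72.1 CPM in physical injury and 184 CPM in ischemic injury cells, and its log2 ratio of 4.60 (3.57 to 7.46) rests on 3 naïve UMIs. Clstn2 and Kirrel3, genes for cell surface adhesion proteins, had log2 ratios of 4.09 (3.18 to 6.10) and 4.00 (3.08 to 6.01) on 5 naïve UMIs each. Leaving out the cells low in the markers kept these 10 log2 ratios between 2.92 and 4.67.

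After thinning every cell to 1000 UMIs, the shares of cells with a UMI of Cxcl1 and of Rgs16 had the order of their levels. Both genes were picked by their ratios over naïve in these same cells, so a higher share after injury is no further support. Thinning left out 3, 81 and 11 shallower cells. Cxcl1 was found in 2.69% (0.994% to 5.76%) of naïve, 9.38% (6.54% to 12.9%) of physical injury and 22.7% (13.8% to 33.8%) of ischemic injury pericytes, and in 9.29%, 13.4% and 25.6% before thinning. In thinned cells of cluster 0 Cxcl1 was found in 5.11%, 3.23% and 4.06%, and the naïve share of the pericytes was no higher than that. Rgs16 was found in 4.04%, 14.5% and 26.7% of thinned pericytes and in 2.92%, 5.25% and 6.02% of those of cluster 0. Without thinning, Rgs16 was in 12.8%, 22.9% and 36.0% of the pericytes. The cluster 0 cells had a median of 2600, 6702 and 8981 UMIs before thinning. Most pericytes of every library thus had no UMI of these genes at this depth.

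Among all genes, the 10 with the largest ratios of physical injury over naïve were S100a6, Pdgfd, Ptprb, Synpo2, Kcnab1, Ly6c1, Itm2a, Cldn5, Ly6a and Ntrk3, and none of them was pericyte-led. S100a6, a calcium-binding protein, was at 2.02 CPM in naïve, 189 CPM in physical injury and 213 CPM in ischemic injury cells. Its naïve level rests on 3 UMIs, and the ratio had an interval of 4.99 to 8.83 on the log2 scale. Pdgfd, a growth factor made by arterial cells, was at 2.02 CPM in naïve, 141 CPM in physical injury and 102 CPM in ischemic injury cells, a log2 ratio of 5.55 (4.56 to 8.41). Cldn5, the tight junction claudin of endothelial cells, was at 4.04 CPM in naïve, 182 CPM in physical injury and 446 CPM in ischemic injury cells, and Ly6c1, an endothelial surface antigen in brain, at 2.69 CPM in naïve, 136 CPM in physical injury and 326 CPM in ischemic injury cells. The physical injury UMIs of Cldn5 lay in 31 of 433 cells, and 3 of those cells held 111 of 271. In ischemic injury 3 cells held 145 of 157 UMIs of Cldn5 and 107 of 115 of Ly6c1. Kcnab1, Ntrk3, Pdgfd and Synpo2 were also high in smooth muscle cells of cluster 1, where Kcnab1 was at 904, 1108 and 581 CPM in the 3 libraries. Without the cells low in the markers, the log2 ratio of Kcnab1 was 2.68 in place of 5.38, and that of Ntrk3 1.44 in place of 4.93.

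The endothelial list of 12 genes summed to 538, 1572 and 1970 CPM in the pericytes of the 3 libraries. Its most abundant gene was Esam in naïve cells, Flt1, a receptor for vascular endothelial growth factor, in physical injury, and Cldn5 in ischemic injury, and none of the 12 was at 0. Of the 8 genes with at least 50 CPM, 7 were at least 2-fold higher in each injured library than in naïve cells, with medians of 4.31 and 4.39. The list's share of a cell's UMIs had nearly the same median in the 3 libraries, at 0.0459%, 0.0454% and 0.0454%, whereas its 90th percentile over cells was 0.114%, 0.157% and 0.180%. The smooth muscle list of 7 genes summed to 733, 4147 and 1811 CPM. Its most abundant gene was Mylk, myosin light chain kinase, in naïve cells and Acta2 in both injured libraries, and Cnn1 and Actg2 were at 0 in naïve and in ischemic injury cells. In the endothelial and smooth muscle clusters themselves these lists summed to 25170 and 31511 CPM in physical injury. Whether doublets or free RNA had a part in these levels was not tested. With the 19 physical injury, 5 ischemic injury and 1 naïve cells left out that held at least 3 UMIs over Cldn5, Ly6c1, Pecam1, Cdh5 and Itm2a, the 2-fold counts were 240 and 147 for physical injury and 302 and 218 for ischemic injury over naïve.

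Most contractile genes with at least 50 CPM were higher in physical injury, whereas in ischemic injury some values depend on the cells taken. Of 17 members with at least 50 CPM in physical injury or naïve cells, 13 were at least 2-fold higher in physical injury. None was 2-fold lower, and the median log2 ratio was 1.75. In ischemic injury 8 of 15 were at least 2-fold higher, with a median of 1.04. The 17 include members that reached 50 CPM only in physical injury, so these counts and medians are not of the same genes. Acta2 was at 96.8 CPM (81.7 to 114) in naïve, 1615 CPM (1551 to 1681) in physical injury and 573 CPM (497 to 658) in ischemic injury cells. Tagln, an actin-binding protein of smooth muscle, was at 43.7 CPM in naïve, 1194 CPM in physical injury and 448 CPM in ischemic injury cells. Tpm1 and Tpm2, 2 tropomyosins, were at 422, 1274 and 976 CPM and at 194, 655 and 400.1 CPM. Myh11 was at 123 CPM in naïve, 607 CPM in physical injury and 159 CPM in ischemic injury cells. Thinned to 1000 UMIs, Acta2 was found in 5.83% (3.14% to 9.76%), 31.0% (26.2% to 36.1%) and 18.7% (10.6% to 29.3%) of the pericytes, against 15.5%, 44.6% and 23.3% unthinned. In thinned cells of cluster 0 its share was 32.9%, 4.09% and 0.271%. The naïve cells there are no background for Acta2, since the smooth muscle list summed to 1196 CPM in them, against 120 and 50.2 CPM in the injured libraries. Without the cells low in the markers, the median of the list in physical injury was 1.42, with Acta2 at 3.91 and Myh11 at 1.39. With the marker-rich cells of clusters 3 and 4 counted as pericytes, Acta2 had log2 ratios over naïve of 1.33 in physical and -0.16 in ischemic injury and Tagln of 1.52 and 0.10, so the ischemic injury values of both depend on which naïve cells are taken. Without cells holding 2 or more endothelial or microglial list UMIs, the ischemic injury ratio of Acta2 was -0.14. Caldesmon (Cald1), which pericytes also use, was at 3471, 3046 and 2736 CPM, and Mylk at 442, 572 and 531 CPM.

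Interferon response genes with at least 50 CPM were higher in both injured libraries. Of 8 members with at least 50 CPM in physical injury or naïve cells, 6 were at least 2-fold higher in physical injury, with a median log2 ratio of 1.20. For ischemic injury over naïve it was 10 of 11, with a median of 2.03, and for ischemic over physical injury 4 of 11, with a median of 0.76. The 11 include members that reached 50 CPM only in ischemic injury, such as Ifit3. These counts and medians are therefore not of the same genes, and no order of the injured libraries is read from them. Ifitm3, a membrane protein that blocks virus entry, was at 579 CPM (541 to 619) in naïve, 1324 CPM (1266 to 1384) in physical injury and 2055 CPM (1908 to 2210) in ischemic injury cells. Isg15, a ubiquitin-like protein, was at 12.1 CPM (7.17 to 19.1) in naïve, 72.1 CPM (59.1 to 87.1) in physical injury and 221 CPM (175 to 276) in ischemic injury cells. Ifit3, an antiviral partner of Ifit1, was at 3.36 CPM (1.09 to 7.85) in naïve, 39.7 CPM (30.2 to 51.3) in physical injury and 130.5 CPM (95.6 to 174) in ischemic injury cells. Thinned to 1000 UMIs, Isg15 was found in 0%, 4.83% and 8.0% of pericytes, against 4.87%, 13.2% and 25.6% unthinned, and in 10.9%, 20.2% and 21.3% of cells of cluster 0. Ifitm3 was found in 43.0%, 55.4% and 58.7% of thinned pericytes, against 87.2%, 67.9% and 80.2% unthinned, and in 59.9%, 69.8% and 76.0% of cells of cluster 0. Both were thus more frequent in the endothelial cluster of each library than in the pericytes, and the part of endothelial transcripts in these levels was not tested. Without cells holding 2 or more endothelial or microglial list UMIs, the list medians were 0.74 and 1.40 over naïve. For Ifitm3, Isg15 and Ifit3 the counting intervals of the 3 libraries did not overlap. With the marker-rich naïve cells of clusters 3 and 4 counted in, the log2 ratios of Isg15 were 1.10 and 2.60 in place of 2.48 and 4.08. Irf1, a transcription factor of the response, was the one of these 11 with a lower level in ischemic than in physical injury, at 36.3 CPM in naïve, 234 CPM in physical injury and 190.1 CPM in ischemic injury cells. The class I antigen presentation genes followed in part. None of 4 was at least 2-fold higher in physical injury and 3 of 7 in ischemic injury, with H2-K1 at 95.5, 133 and 236 CPM. The 7 include genes that reached 50 CPM only in ischemic injury, so these counts are not of the same members.

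Complement and inflammatory genes were higher in part. Of the complement and acute phase list, 2 of 3 genes were at least 2-fold higher in physical injury, with the other at a log2 ratio of -0.06, and 3 of 4 in ischemic injury. Serping1, the inhibitor of the C1 protease, was at 76.0 CPM in naïve, 228 CPM in physical injury and 244 CPM in ischemic injury cells, and C1s1, that protease's subunit, at 22.9 CPM in naïve, 46.5 CPM in physical injury and 96.5 CPM in ischemic injury cells. Of the inflammatory signals, 6 of 9 were at least 2-fold higher in physical injury and 7 of 10 in ischemic injury, and none was 2-fold lower. In both lists the counts are not of the same genes, since C1s1 and Icam1, for example, reached 50 CPM only in ischemic injury. Socs3, a feedback inhibitor of cytokine receptors, was at 240.1 CPM in naïve, 717 CPM in physical injury and 982 CPM in ischemic injury cells. Nfkbia, the inhibitor of NF-kappa-B and one of its targets, was at 159 CPM in naïve, 381 CPM in physical injury and 519 CPM in ischemic injury cells. Icam1, a leukocyte adhesion molecule, was at 2.69 CPM in naïve, 39.7 CPM in physical injury and 99.3 CPM in ischemic injury cells, with 4, 27 and 8 cells holding a UMI. Cxcl12, a chemokine of resting mural cells, was lowest in ischemic injury, at 170.1 CPM in naïve, 195 CPM in physical injury and 93.7 CPM in ischemic injury cells. Il34, a ligand of the macrophage receptor Csf1r, was at 442 CPM in naïve, 588 CPM in physical injury and 644 CPM in ischemic injury cells. Microglial transcripts were few. The list of 12 genes summed to 26.9, 84.9 and 65.3 CPM in the pericytes, with C1qc, Cd74, Tyrobp, Csf1r and Lyz2 at 0 in naïve cells and C1qa, C1qc, Ctss and Aif1 at 0 in ischemic injury. Its most abundant gene was P2ry12 in the naïve and ischemic injury libraries and Cd74 in physical injury.

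**Figure D3:**
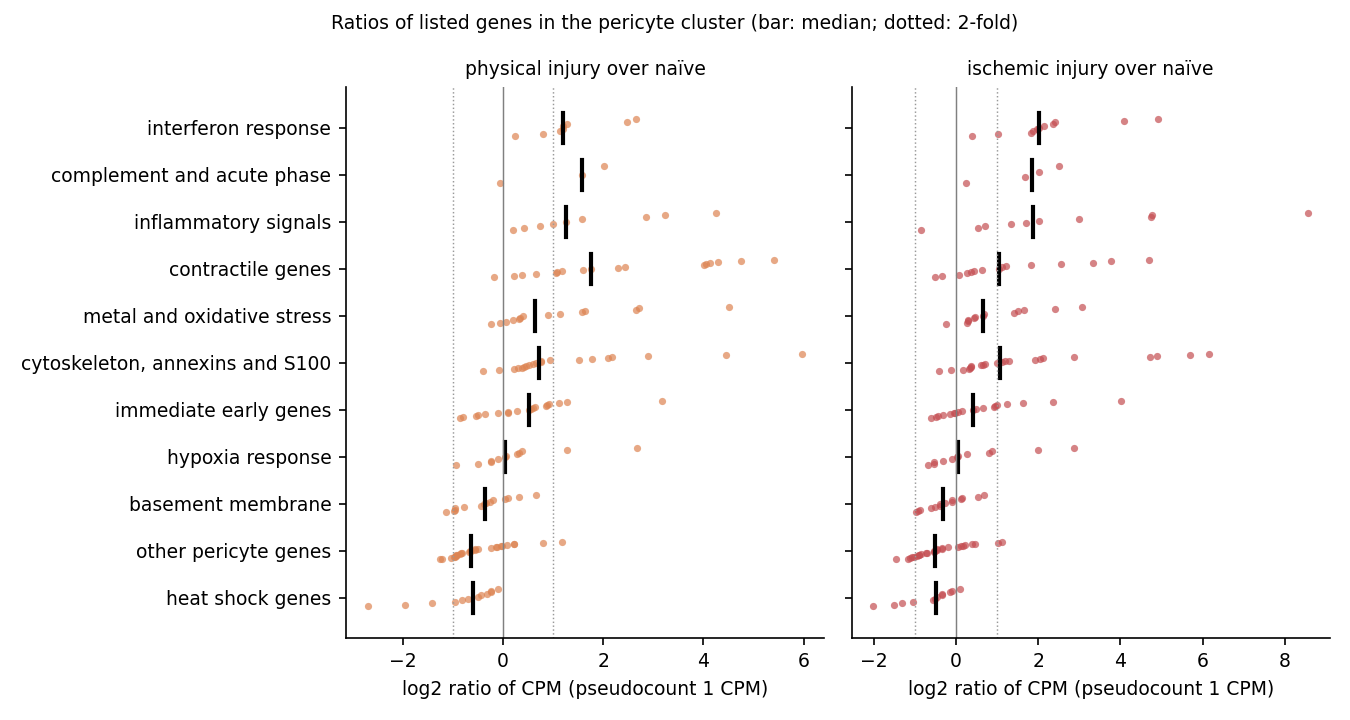
Each point is a listed gene with at least 50 CPM, placed by its log2 ratio of CPM over naïve (pseudocount 1 CPM) in physical injury on the left and ischemic injury on the right. Black bars mark list medians and dotted lines 2-fold, and the interferon median lies at 1.20 and 2.03 while that of other pericyte genes lies at -0.65 and -0.51. The genes that reach 50 CPM differ between the sides.

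Some genes of the cytoskeleton and of metal and oxidative stress were also higher. Vim, the intermediate filament vimentin, was at 86.1 CPM in naïve, 642 CPM in physical injury and 633 CPM in ischemic injury cells, and Anxa1, an annexin that limits inflammation, at 11.4 CPM in naïve, 269 CPM in physical injury and 326 CPM in ischemic injury cells. Of the cytoskeleton, annexin and S100 list, 7 of 20 were at least 2-fold higher in physical injury and 11 of 22 in ischemic injury, and none was 2-fold lower. Its medians were 0.71 and 1.06, with the lowest member at -0.41 and -0.42. Lgals3, a galectin, had no UMI in naïve cells and was at 20.2 and 51.1 CPM after injury, at least 10.0-fold and at least 25.3-fold higher than a naïve count of 3. The ischemic injury value of Lgals3 rests on 18 UMIs in 5 cells, 15 of them in 3 cells. Mt1, a metallothionein, was at 99.5 CPM in naïve, 658 CPM in physical injury and 834 CPM in ischemic injury cells. Id3, a target of bone morphogenetic protein signalling, was at 149 CPM in naïve, 1145 CPM in physical injury and 1129 CPM in ischemic injury cells. The neural precursor list had only Nes, an intermediate filament that pericytes also make, above 50 CPM, at 191 CPM in naïve, 157 CPM in physical injury and 119 CPM in ischemic injury cells, and Sox2 had no UMI in any of the 3 libraries, which allows at most 2.02, 2.02 and 8.51 CPM. Of the proliferation list, 4 of 5 genes with at least 50 CPM had a ratio above 0 in physical injury and 1 was at least 2-fold higher (2 without the cells low in the markers), with a median of 0.725. In ischemic injury 4 of 4 were above 0 and none was 2-fold higher, with a median of 0.455. Pcna, a clamp of DNA polymerase, was the one below 0 in physical injury, at 78.7, 71.4 and 90.8 CPM.

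Further pericyte genes had a median below that of all genes in both injured libraries. Of 27 further pericyte genes, 3 were at least 2-fold lower in physical injury and 5 in ischemic injury, against 1 and 2 higher. Of all genes, 3.66% and 5.17% were lower and 6.45% and 7.07% higher. The list medians were -0.65 and -0.51. Pdgfrb was at 1613 CPM (1549 to 1678) in naïve, 1008 CPM (958 to 1061) in physical injury and 1135 CPM (1027 to 1252) in ischemic injury cells. Cspg4, which encodes the NG2 proteoglycan, was at 722 CPM in naïve, 368 CPM in physical injury and 443 CPM in ischemic injury cells. Cox4i2, a hypoxia-linked subunit of cytochrome oxidase, was at 625 CPM in naïve, 262 CPM in physical injury and 275 CPM in ischemic injury cells, and Enpep, the aminopeptidase that cleaves angiotensin II, at 508 CPM in naïve, 219 CPM in physical injury and 184 CPM in ischemic injury cells. Des, the muscle intermediate filament desmin, was the member that was 2-fold higher in both, at 122 CPM in naïve, 276 CPM in physical injury and 267 CPM in ischemic injury cells. Notch3, the mural Notch receptor, was at 1038 CPM in naïve, 953 CPM in physical injury and 1129 CPM in ischemic injury cells, and Ebf1, a mural transcription factor, at 2371 CPM in naïve, 2334 CPM in physical injury and 2438 CPM in ischemic injury cells. Tbx18, the driver gene of the line, was at 125 CPM in naïve, 146 CPM in physical injury and 173 CPM in ischemic injury cells. Of 14 basement membrane genes, 4 had a ratio above 0 in each injured library, with medians of -0.36 and -0.33. Lama2, a laminin chain, was at 1218 CPM in naïve, 554 CPM in physical injury and 622 CPM in ischemic injury cells. Sparc, a collagen-binding matrix protein, was at 1280 CPM in naïve, 2008 CPM in physical injury and 1850 CPM in ischemic injury cells. Without the cells low in the markers, the median of the further pericyte genes in physical injury was -0.51.

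Genes that set vessel tone, transport and matrix were mixed. For reference, 6.45% and 7.07% of all genes were at least 2-fold higher in physical and ischemic injury than in naïve cells, and 3.66% and 5.17% lower. Of the vasomotor channels and receptors with at least 50 CPM, 4 of 23 were at least 2-fold higher and 1 lower in physical injury, and 3 and 3 of 22 in ischemic injury, with medians of -0.35 and -0.44. Ednra, the main endothelin receptor of mural cells, was at 438 CPM in naïve, 373 CPM in physical injury and 439.9 CPM in ischemic injury cells. Adra2a, an adrenergic receptor, was at 17.5 CPM in naïve, 55.9 CPM in physical injury and 102 CPM in ischemic injury cells, and Pde3a, a cyclic nucleotide phosphodiesterase, at 428 CPM in naïve, 822 CPM in physical injury and 758 CPM in ischemic injury cells. Among 9 transporters in physical injury, 2 were 2-fold higher and 3 lower, or 1 and 2 without the cells low in the markers, with Slc6a20a, an amino acid transporter, at 1220 CPM in naïve, 643 CPM in physical injury and 656 CPM in ischemic injury cells. The PDGF and TGF-beta list had 5 of 14 genes higher in physical and 5 of 14 in ischemic injury, with Pdgfa, a growth factor ligand, at 91.5 CPM in naïve, 255 CPM in physical injury and 346 CPM in ischemic injury cells. Without the cells low in the markers these counts were 2 and 6, and the physical injury median was 0.18 in place of 0.44. The vessel growth and Notch list had 2 of 11 higher in each injured library, Angpt1 and Angpt2, whereas S1pr3, a receptor for sphingosine 1-phosphate, was lower, at 514 CPM in naïve, 238 CPM in physical injury and 224 CPM in ischemic injury cells. Of 6 scar matrix genes, 2 were higher and 1 lower in each, and without the cells low in the markers 1 was higher and none lower in physical injury. Col3a1, a fibrillar collagen, was at 50.4 CPM in naïve, 327 CPM in physical injury and 412 CPM in ischemic injury cells, and Fn1, fibronectin, at 25.6 CPM in naïve, 61.3 CPM in physical injury and 71.0 CPM in ischemic injury cells, whereas Spp1, osteopontin, was at 67.2 CPM in naïve, 31.7 CPM in physical injury and 5.68 CPM in ischemic injury cells. The 100 naïve UMIs of Spp1 lay in 25 cells, of which 3 held 48, and its ischemic injury ratio was 0.10 in place of -3.35 without cells holding 2 or more endothelial or microglial list UMIs. The fibroblast list of 8 genes summed to 456, 691 and 795 CPM, against 10417, 12404 and 14590 CPM in the fibroblast cluster 5. Its most abundant gene was Igf2 in naïve cells and Col3a1 after injury, Lum and Pdgfra were at 0 in naïve and in ischemic injury cells and Col15a1 in naïve cells, and its part in the Col3a1 levels was not tested.

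Housekeeping lists gave a reference. Of 84 ribosomal protein genes, 1 was 2-fold higher and 2 lower in physical injury, or 4 and 1 without the cells low in the markers. The median log2 ratio was 0.56 in physical injury and 0.53 in ischemic injury. Of 78 nuclear genes of oxidative phosphorylation the medians were 0.31 and 0.15. The metal and oxidative stress list had 6 of 14 and 5 of 13 genes at least 2-fold higher, with medians of 0.64 and 0.65, near those of the ribosomal list. Its physical injury median was 0.18 without cells holding 2 or more endothelial or microglial list UMIs. The immediate early list had 3 and 4 of 19. The glucocorticoid targets had 1 of 4 in physical injury and none of 3 in ischemic injury. Transcripts of other brain cells were scarce in the pericytes. The astrocyte list summed to 47.1, 30.3 and 22.7 CPM, the oligodendrocyte list to 17.5, 43.8 and 59.6 CPM, and the erythrocyte list to 0.672, 21.6 and 22.7 CPM. The oligodendrocyte precursor list had 1, 1 and 0 UMIs and the lymphocyte and neutrophil list none. The neuron list summed to 358, 440.5 and 604 CPM, nearly all of it Meg3, with Snap25, Gad1 and Slc17a7 at 0 in each library.

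Of 12 heat shock genes, 3 were at least 2-fold lower in physical injury and 4 in ischemic injury, and none was 2-fold higher. The median log2 ratios were -0.61 and -0.49, and 0 and 1 of the 12 had a ratio above 0. Hspa1a was at 3092 CPM in naïve, 795 CPM in physical injury and 1496 CPM in ischemic injury cells, and Hspa1b, its near-identical neighbour with which it can share reads, at 1590 CPM in naïve, 243 CPM in physical injury and 553 CPM in ischemic injury cells. Among the pericyte-led genes lower in physical injury were Bmp4, a ligand of bone morphogenetic protein receptors, at 96.2 CPM in naïve, 23.6 CPM in physical injury and 45.4 CPM in ischemic injury cells, Fgf12, an intracellular modulator of sodium channels, at 113 CPM in naïve, 24.9 CPM in physical injury and 17.0 CPM in ischemic injury cells, and Lrrc4, a cell surface leucine-rich repeat protein, at 86.1 CPM in naïve, 16.8 CPM in physical injury and 36.9 CPM in ischemic injury cells. Saa1, an acute phase protein, was at 53.1, 11.4 and 14.2 CPM on 79 naïve UMIs. In ischemic injury they included Fgf12 and Sh3bp5, a mitochondrial kinase-binding protein, at 129.8 CPM in naïve, 47.1 CPM in physical injury and 19.9 CPM in ischemic injury cells. Sod3, the secreted superoxide dismutase, was at 886 CPM (838 to 935) in naïve, 266 CPM (240.5 to 294) in physical injury and 199 CPM (155 to 251) in ischemic injury cells. Grm3, a glutamate receptor found in brain pericytes, was at 1194 CPM (1139 to 1250) in naïve, 471 CPM (437 to 507) in physical injury and 278 CPM (226 to 339) in ischemic injury cells. Thinned to 1000 UMIs, Grm3 was found in 58.3% (51.5% to 64.8%), 19.3% (15.3% to 23.8%) and 22.7% (13.8% to 33.8%) of pericytes, against 88.5%, 30.0% and 32.6% unthinned, and in 11.7%, 0.0576% and 0% of cells of cluster 0. Grm3 and Sod3 were picked by their ischemic injury ratio, so a naïve level above the ischemic injury level follows from that choice. Their physical injury levels were also below naïve, with counting intervals that did not overlap, but the same naïve values entered both ratios.

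Hypoxia response genes showed no common direction. Of 12 members, 2 were at least 2-fold higher and none 2-fold lower in each injured library, and the median log2 ratio was 0.05 in physical and 0.04 in ischemic injury, against -0.02 and 0.02 for all genes. Without the cells low in the markers, 1 was 2-fold higher in physical injury. The 2 higher members were Slc2a1, the glucose transporter of brain endothelium, at 40.4 CPM in naïve, 99.0 CPM in physical injury and 165 CPM in ischemic injury cells, and Ndrg1, a stress-responsive gene, at 10.1 CPM in naïve, 69.4 CPM in physical injury and 79.5 CPM in ischemic injury cells. Ldha, lactate dehydrogenase, was at 201, 170.4 and 187 CPM. Immediate early genes were mixed too. Fos was at 6380 CPM in naïve, 7690 CPM in physical injury and 9002 CPM in ischemic injury cells, Jun at 6942 CPM in naïve, 4886 CPM in physical injury and 5148 CPM in ischemic injury cells and Egr1 at 3418 CPM in naïve, 1973 CPM in physical injury and 2758 CPM in ischemic injury cells. Thinned to 1000 UMIs, Fos was found in 80.3%, 56.5% and 49.3% of pericytes, against 89.4%, 62.4% and 55.8% unthinned, and in 94.9%, 82.1% and 84.6% of thinned cells of cluster 0. The share of pericytes with Fos thus had the opposite order to its summed level, and no order of Fos is read from either.

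The comparison of ischemic with physical injury sets the injected agents side by side. The 10 largest ratios toward physical injury were Kcnma1, Ryr2, Crispld2, Ntrk3, Cdh6, Kcnab1, Ltbp1, Hmox1, Prdm16 and Pln. Kcnma1, a large-conductance potassium channel, had 179 UMIs in physical injury and none in ischemic injury, at least 14.2-fold higher than an ischemic count of 3, but 166 of the 179 lay in the cells low in the markers and the other cells were at 9.93 CPM, near the 8.51 CPM of that count. Ryr2, a calcium release channel, had 111 UMIs and none, at least 8.78-fold higher, but 106 of the 111 lay in the cells low in the markers and the other cells were at 3.82 CPM, below 8.51 CPM. Without the cells low in the markers, 50 of the 114 genes stayed at least 2-fold lower in ischemic than in physical injury, and 52 genes were so when the minimum of 50 CPM was applied again to the remaining cells. Crispld2, a secreted matrix protein, then had a log2 ratio of -1.79 in place of -4.41, Kcnab1 -1.22 in place of -3.84 and Prdm16, a transcription factor, -0.04 in place of -3.07. Hmox1, heme oxygenase, had 123 UMIs in physical injury, of which 116 lay in 1 cell low in the markers. The 10 pericyte-led genes with the largest ratios toward physical injury had log2 ratios from -1.05 for Kcnq5, a potassium channel, to -1.38 for Lgals8, a galectin. Kcnq5 was at 0.84 after thinning to 1000 UMIs and at 0.23 as a mean over cells.

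Toward ischemic injury, several of the largest ratios rested on few cells. Gkn3, a gene of arterial endothelium, had 46 UMIs in 2 of 86 ischemic injury cells, 44 of them in 1 cell. Il6, the cytokine interleukin 6, had no UMI in naïve cells, 27 in 11 physical injury cells and 133 in 6 ischemic injury cells, of which 3 cells held 118. Its level was 18.2 and 377 CPM after injury, at least 9.02-fold and at least 187-fold higher than a naïve count of 3. Ednrb, an endothelin receptor, had 59 UMIs in 4 cells, and Mdm2, the ubiquitin ligase of p53, 76 in 13. Of genes described above, 3 ischemic injury cells held 115 of 202 UMIs of Acta2, 50 of 75 of S100a6, 47 of 65 of Lmcd1, 43 of 67 of Irf1, 23 of 32 of Myc, 27 of 35 of Icam1 and 44 of 58 of Slc2a1. Without those cells the log2 ratio over naïve of Slc2a1 was -0.02 in place of 2.00 and that of Irf1 0.89 in place of 2.36. When the 3 cells with most UMIs of each gene were left out of its count in the higher library, 4 of the 86 genes stayed past 2-fold toward ischemic injury and 66 of 114 toward physical injury. The step only lowers counts in the higher library, so it can shrink a ratio or turn its sign. Because 3 cells are a larger part of 86 cells than of 433, these counts are not comparable between the libraries. Against naïve the same step kept 209 of 285 higher genes in physical injury and 146 of 321 in ischemic injury. Cxcl1 was spread more widely, with 384 UMIs in 22 of 86 cells and a log2 ratio over naïve of 3.98 after this step. Ifit3 was in 16 cells with a log2 ratio of 4.25 after it, and Pmp22, a membrane protein of growth arrest, in 27 cells with 3.73. Col18a1, a collagen of vascular basement membranes, was in 22 cells, at 6.72 CPM in naïve, 119 CPM in physical injury and 145 CPM in ischemic injury cells. Kit, a receptor tyrosine kinase, rested on 18 UMIs in 9 cells.

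**Figure D4:**
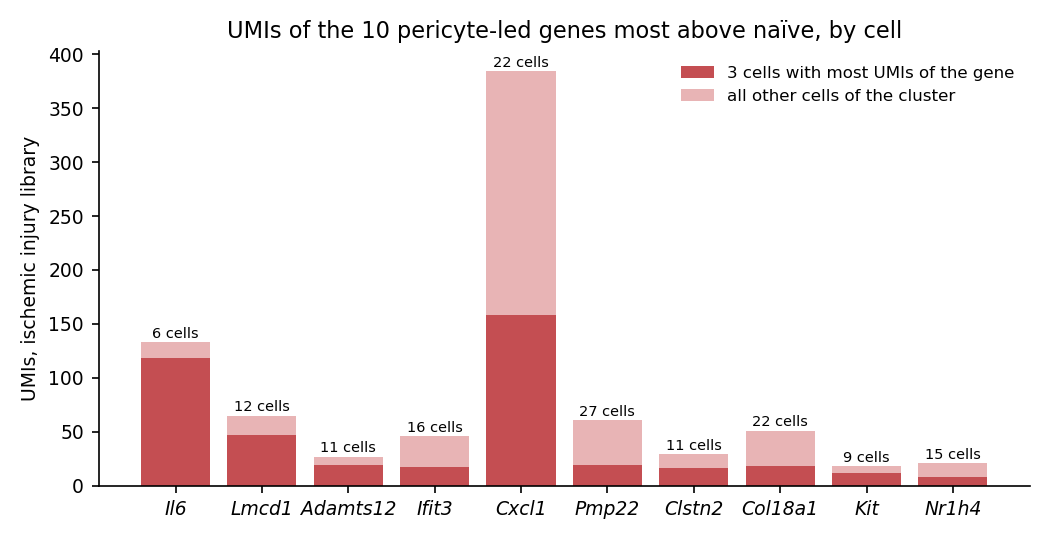
Bars give the UMIs of the 10 pericyte-led genes with the largest ratio of ischemic injury over naïve, summed over the 86 ischemic injury pericytes. The dark part comes from the 3 cells with most UMIs of that gene and the number above is the count of cells with any, so 3 cells hold 118 of 133 UMIs of Il6 but 158 of 384 of Cxcl1.

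Promoter windows from RefSeq (GRCm38.p6, 250 bases before to 50 bases after a start) were searched on both strands for the AP-1 site TGANTCA, the hypoxia response core ACGTG and the CArG box of serum response factor. Stretches of them are shown for 4 pericyte-led genes that were higher after injury and hold one of them, 5′ to 3′ along the gene's strand (plus for all 4), with the match in capitals. Il6 (chr5:30012864-30012921) and Ifit3 (chr19:34583423-34583529) held TGANTCA, Cxcl1 (chr5:90890999-90891103) held ACGTG on the opposite strand, and Lmcd1 (chr6:112273508-112273602) held a CArG box.
Il6: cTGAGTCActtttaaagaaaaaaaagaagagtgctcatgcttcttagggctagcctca
Ifit3: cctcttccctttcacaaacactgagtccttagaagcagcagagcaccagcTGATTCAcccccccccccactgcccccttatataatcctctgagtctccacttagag
Cxcl1: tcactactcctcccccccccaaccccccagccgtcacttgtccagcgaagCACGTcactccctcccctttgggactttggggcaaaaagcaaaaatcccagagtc
Lmcd1: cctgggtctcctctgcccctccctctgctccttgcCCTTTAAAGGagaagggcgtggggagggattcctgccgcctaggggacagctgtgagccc
The shares below are over whole windows of 300 bases, and the end of TGANTCA can overlap the start of ACGTG or of its complement. Windows were available for 23 of the 36 pericyte-led genes higher in physical injury and 91 of the 123 higher in ischemic injury. TGANTCA was in 1 of 23 (4.35%) and 7 of 91 (7.69%) of them, against 5.90% of all genes with 50 CPM or more in any of the 3 libraries and 8.97% of all genes with a window. ACGTG was in 17.4% and 27.5%, against 30.5% and 21.8%. A CArG box was in 2 of 23 and 3 of 91, against 2.01% and 1.81%. In the pericyte-led genes that were lower, TGANTCA was in 10.4% and 11.6%, ACGTG in 38.8% and 39.5% and a CArG box in 4.48% and 2.33%. TGANTCA reads the same on both strands up to its middle base. A match shows only that the letters are present.

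The pericytes of the NG2 line (clusters 0, 1 and 2 of that line, traced from NG2-CreERT2 and given the same treatments) give the same contrasts in another line. Of the 36 pericyte-led genes at least 2-fold higher in physical injury in the Tbx18 line, 1 was so in the NG2 line, and of the 123 in ischemic injury, 4. Of the 86 and 115 lower genes, none was. Over all genes of these comparisons, 0.430% and 0.814% were at least 2-fold higher in the NG2 line, and 0.475% and 0.0220% at least 2-fold lower. Across these genes, which are not independent, Pearson's r between the log2 ratios of the 2 lines was 0.0465 for 4422 genes in physical injury and 0.426 for 4543 genes in ischemic injury. Vtn was at 19134, 18540 and 17818 CPM in naïve, physical injury and ischemic injury NG2 pericytes, and Abcc9 at 1509, 1479 and 1586 CPM. Neither was 2-fold lower after injury there, and in the Tbx18 line Abcc9 was and Vtn was not. Isg15 had log2 ratios of 1.39 and 2.12 in the NG2 line, against 2.48 and 4.08, and S100a6 of 0.96 and 3.04, against 5.97 and 6.15. Cxcl1 had -0.63 and 1.59, against 3.24 and 4.75. Acta2 had -0.64 and -0.32. Hspa1b was at 1025, 450.3 and 543 CPM in the NG2 line, again highest in naïve cells. The list medians in ischemic injury were 0.71 for interferon genes and -0.07 for further pericyte genes in the NG2 line. The lines were clustered separately, with 1 library per group each, so no difference between them was tested.

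**Figure D5:**
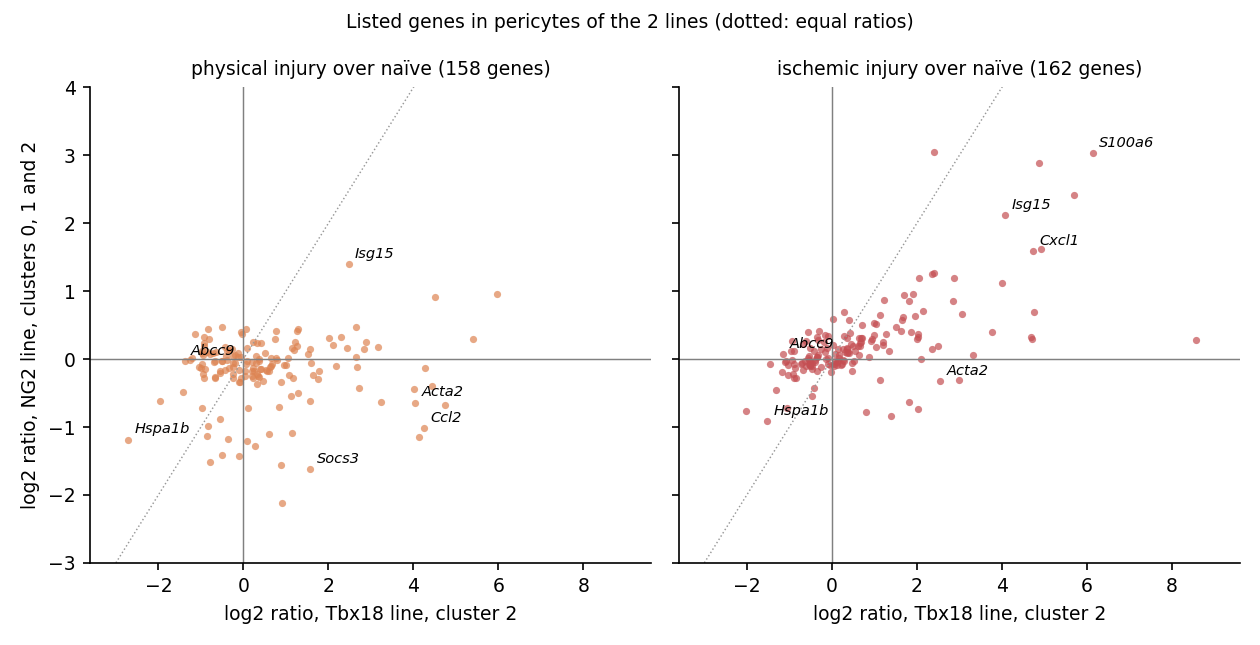
Each point is a listed gene or marker with at least 50 CPM, with its log2 ratio over naïve in the Tbx18 line on the horizontal axis and in NG2 pericytes on the vertical axis, for physical injury (left) and ischemic injury (right). Most points with a ratio above 2 in the Tbx18 line lie below the dotted line of equal ratios, and Socs3 and Ccl2 lie below 0 in the NG2 line in physical injury. Points with a ratio above 2 were picked by the Tbx18 line, and the minimum used its libraries only. Nothing is therefore read from their place below the line.

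Smooth muscle cells of the same line (cluster 1, 63, 827 and 47 cells) came from the same libraries. Cxcl1 was at 131, 69.2 and 18.3 CPM in smooth muscle cells of the 3 libraries, Ccl19 at 0, 1.27 and 4.58 CPM and Rgs16 at 24.5, 20.3 and 4.58 CPM. Pericyte-led genes lie above smooth muscle in the higher library by definition, so nothing is read from that order after injury. In naïve cells, which did not enter that choice, Cxcl1 was lower in pericytes (39.7 CPM) than in smooth muscle. Vim was at 1492, 2901 and 2514 CPM and Id3 at 684, 1558 and 1460 CPM in smooth muscle, above the pericyte level of the same library in each case. Of the pericyte-led genes lower than in naïve cells, 77 of 86 in physical and 85 of 115 in ischemic injury had a ratio of the same sign in smooth muscle. Of the higher ones, 18 of 36 and 52 of 123 did. A share over all genes is not given, so nothing is read from these counts. In the naïve library 37 of the 63 cells of cluster 1 were rich in the pericyte markers. Vtn was at 1684, 292 and 1488 CPM in cluster 1 of the 3 libraries. The part of pericyte transcripts in the smooth muscle ratios was not tested, and neither was any difference between the cell types.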

How the data were processed

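Droplet single-cell libraries of sorted tdT+ cells were used, 1 pooled library per group. The authors deposited a table of UMI counts per gene and cell for each line, with each cell's library and cluster. Per the labels the reads were counted with Cell Ranger 7.0.0 on mm10, and the study's methods give a range of versions. The authors kept genes found in at least 3 cells and cells with at least 200 genes and at most 12% mitochondrial reads, and clustered with Seurat after integration. The sources used here do not mention doublet removal, and no doublet caller was run.

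For each cluster and library, the deposited counts were added up per gene and expressed as CPM of all UMIs of those cells. Exact Poisson, Clopper-Pearson and conditional binomial 95% intervals cover counting error only. Log2 ratios used a pseudocount of 1 CPM and genes with at least 50 CPM in the higher library, and intervals of ratios are of the counts themselves. With 1 library per group no test was run. Per comparison, the genes named are the 10 largest ratios each way among all and among pericyte-led genes, with members of the lists. The members and lists were chosen with earlier results of these data known, and values without cells low in the markers, without the 3 cells with most UMIs of a gene, without cells rich in endothelial UMIs or with marker-rich cells of clusters 3 and 4 were chosen after seeing the data. The ratio intervals were tested on simulated Poisson counts only. Those counts lack the gathering of UMIs in few cells seen here, so the test says nothing about that spread. Python 3.11.15, numpy 2.4.6, pandas 2.3.3, scipy 1.17.1, matplotlib 3.10.9 and, for an alternative scaling (TMM), edgeR 4.0.16 in R 4.3.3 were used. Other scalings, pseudocounts, minimum levels, weights, depths and cell filters were tried as alternatives. Some genes are not reported here.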

Additional observations from a re-analysis of the deposited data

Results flagged for a closer look

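The genes named in the text, the markers and the list members were searched in both injured libraries, not all genes. The minimum of 50 CPM used the Tbx18 libraries only, and a share over all genes is not given. For 5 of the genes searched, the Tbx18 and NG2 pericytes differed by at least 2-fold from their naïve cells in opposite directions, in each case after physical injury. Ccl2, a chemokine for monocytes, had a log2 ratio of 4.25 in the Tbx18 line and -1.01 in the NG2 line. Kirrel3, an adhesion protein gene, had 4.00 and -1.24, and Sncg, a synuclein gene, 4.12 and -1.14. Socs3, the cytokine feedback inhibitor, had 1.58 and -1.62, and Txnip, an inhibitor of thioredoxin, 1.13 and -1.08. Each line has 1 library per group, so the difference between the lines was not tested for any of the 5.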

How the results depend on the processing

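The main limit is 1 pooled library per group, and the 352373 UMIs of the ischemic injury pericytes limit low genes there. No paired analysis was possible because each group had 1 library and no test was run. Scaling by TMM factors moved 2 of 240 reported gene ratios beyond their counting interval and reversed none, and leaving mitochondrial and ribosomal genes out of the total moved 3 and reversed none. Other settings moved more of the 240, namely 143 without cells holding 2 or more endothelial or microglial list UMIs, 108 after thinning, 105 without the 3 cells with most UMIs of a gene, 96 as means over cells, 80 without the tenth of cells with most UMIs, 75 with marker-rich cells of clusters 3 and 4, 44 without cells low in the markers, 27 without cells holding 3 or more endothelial UMIs, and 20 each with a pseudocount of 5 CPM and with the filters of the methods applied again. The causes of the changes below were not tested.

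Numbers of genes past 2-fold are given as higher and lower. For physical injury over naïve they were 555 and 315 with a minimum of 20 CPM and 2117 and 1532 with none. They were 449 and 378 without cells holding 2 or more endothelial or microglial list UMIs, which leaves out 176, 197 and 48 cells. The lower genes numbered 313 after thinning and 102 without the 3 cells with most UMIs of a gene. For ischemic injury over naïve the pairs were 686 and 532, 2308 and 2654, 743 and 611, and 846 and 620 after thinning, with 146 higher without the 3 cells. For ischemic over physical injury they were 318 and 338, 1630 and 2410, 517 and 459, and 601 and 495 after thinning, 245 and 207 as means over cells, 5 higher without the 3 cells and 52 lower without cells low in the markers. Of the 86 higher genes of the main setting, 4 stayed without the 3 cells, and Hmox1 turned from -3.14 to 1.37. Pericytes made up 78.2%, 34.4% and 64.7% of mural cells (clusters 1 and 2). Outside cluster 4 the naïve and physical injury shares were 42.7% and 12.4%, the naïve share with marker-rich cells of clusters 3 and 4 was 66.6%, and the physical injury share was 9.52% of cells with 1000 or more UMIs and 9.36% without cells low in the markers. With NG2 clusters 1 and 2 alone, 1 higher and 1 lower pericyte-led gene matched in ischemic injury.

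Some small list medians changed sign in physical injury over naïve. After thinning, the class I median was at -0.172 in place of 0.214 and that of glucocorticoid targets at -0.171 in place of 0.265. Without cells holding 2 or more endothelial or microglial UMIs, the hypoxia median was at -0.147 in place of 0.046. The following log2 ratios of genes, and 1 further list median, also changed sign. Without cells holding 2 or more endothelial or microglial UMIs, in ischemic injury over naïve Acta2 was at -0.14 and Spp1 at 0.10. Under that filter Gkn3 was at -1.56, Gm12703 at -1.27, Hmox1 at 4.27 and Kcnq5 at 0.08 for ischemic over physical injury. Gkn3 over naïve was at -1.40 without the tenth of cells with most UMIs, -0.74 without cells holding 3 or more UMIs of 5 endothelial genes and -1.23 without the 3 cells. Acta2 over naïve was at -0.16 with marker-rich cells of clusters 3 and 4. The rest are for ischemic over physical injury. Without the tenth of cells with most UMIs, Ednrb was at -0.45, Enc1 at -0.49, Gkn3 at -0.97, Hmox1 at 1.36 and Il6 at -0.84. Without the 3 cells with most UMIs of each gene, Ednrb was at -2.85, Enc1 at -3.47, Gkn3 at -1.60, Gm11906 at -0.39, Gm12703 at -0.18, Hmox1 at 1.37, Icam1 at -0.78, Mdm2 at -0.72 and the median of the class I antigen presentation list at -0.074. Without cells holding endothelial UMIs, Gkn3 was at -0.81 and Hmox1 at 0.70. Without cells low in the markers, Hmox1 was at 0.12 and Mdm2 at -0.34. Thinned to 1000 UMIs, Agtpbp1 was at 0.008, Gm11906 at -0.54 and Kcnq5 at 0.84, Kcnq5 was at 0.23 as a mean over cells, and Hmox1 at 0.88 with the filters of the methods applied again.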
